A study of Rattus norvegicus with 40 samples.

Results

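The liver of untreated rats was compared between week 14 and week 8 of the study, to see what changed in liver messenger RNA with 6 weeks of time alone. The members were chosen by their labels, NOD (no DEN) at collection week 8 or 14, which gave 8 of the 40 libraries, 4 at each week. All rats were male Fischer 344, and the groups of the series started at 7 weeks of age, so the untreated rats were about 15 weeks old at week 8 and about 21 weeks old at week 14. The remaining libraries came from untreated liver at week 20 (about 27 weeks old) and from non-tumoral liver and nodules of rats given diethylnitrosamine (DEN), a liver carcinogen, by weekly intra-peritoneal injection of 50 mg/kg for 8 or 14 weeks, some of them followed by 6 weeks without it. The untreated rats are described only as animals of matching age that got no DEN. Whether they received injections of vehicle is not given in the sources used here. Rats H05 to H08 were taken at week 8 and rats H09 to H12 at week 14, so each library is 1 animal and no rat was followed over time. The genotype is that of the strain, with no transgene or deletion.

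The liver of a male rat is fully grown in function by the ages studied. Most of its messenger RNA comes from hepatocytes, which make plasma proteins, bile acids, glucose and lipids, and which oxidise and conjugate drugs and hormones. Pulses of growth hormone keep the male pattern of liver enzymes through STAT5 and switch on feedback genes such as Cish and Socs2 for a short time. Kupffer cells, the macrophages of the liver, and the sinusoidal endothelium make up most of the other cells, and their number and state vary with age and infection history.

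Between 28003905 and 35326660 read pairs were counted per library in the 8 livers, on 12212 to 12364 genes. Albumin took 16.7% to 18.7% of the counted pairs. Markers of the labelled tissue were abundant: the 6 hepatocyte markers (Alb, Apoa1, Ttr, Serpina1, Cps1 and Hnf4a) summed to 206455 to 215421 CPM (counts for each 1000000 counted pairs, after scaling) at week 8 and to 194343 to 220340 CPM at week 14. Marker lists of pancreas and muscle summed to at most 11.4 CPM in any of the 8 livers. The gut list summed to 1548 to 1919 CPM at week 8 and 1666 to 1906 CPM at week 14, nearly all of it Apoa4, which liver also makes. The adipose and mesothelium list summed to 249 to 310 CPM over both weeks, most of it Krt8 and Cidec. The libraries were close to each other, with Pearson correlations of log2 CPM from 0.984 to 0.994 over genes, which are not independent replicates. The lowest chi-square per degree of freedom between a pair of rats of 1 group, a ratio of variances that is near 1 for sampling noise alone, was nevertheless 13.65, so no library was a copy of another.

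The library of rat H07, labelled week 8, lay among the week 14 livers. Its mean correlation was 0.9931 with the 4 week 14 libraries and 0.9903 with the other 3 of week 8. On the first principal component of all genes it scored 5.72, inside the week 14 range of 2.73 to 19.8, while the other week 8 rats scored from -20.0 to -7.76. Rat H06 was about as close to one week (0.9916) as to the other (0.9917). Sequencing depth, albumin share and share of pairs outside exons of H07 were within the range of the other libraries. Each change from week 8 to week 14 is therefore given with H07, and for a named gene also without it where that changed an edgeR call. A cause was not tested.

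**Figure D1:**
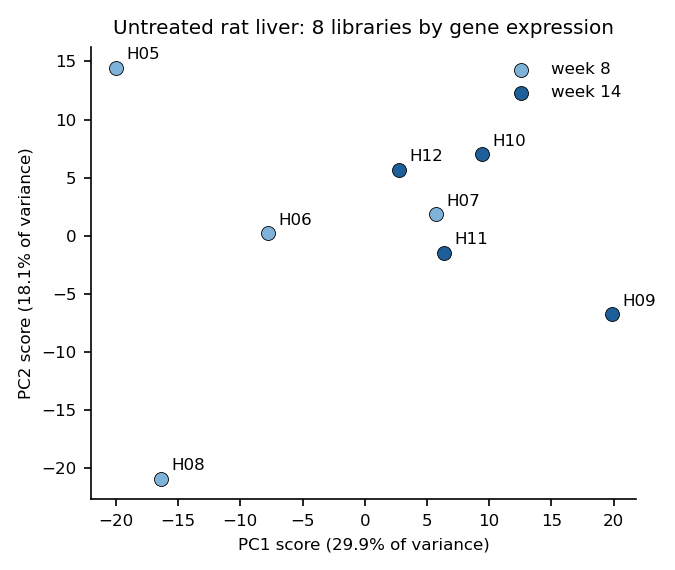
First and second principal component of log2 CPM in the 8 untreated livers, with each point 1 rat and the axes in score units. H07, a week 8 rat, lies at 5.72 on the first component, between the week 14 rats H12 at 2.73 and H10 at 9.43.

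No gene passed the test between week 14 and week 8. With the quasi-likelihood test of edgeR, 0 of 10486 genes (0%) reached an adjusted p of at most 0.05. At an unadjusted p under 0.05 there were 1038 genes, 570 higher at week 14 (5.44%) and 468 lower (4.46%). The smallest adjusted p was 0.0771, shared by Vwf and Tsc22d3. limma-voom also called 0 genes (1054 at an unadjusted p under 0.05), while DESeq2 called 31, of which 18 were higher (0.156% of the genes given an adjusted p) and 13 lower (0.113%). Without H07, edgeR called 166 genes, 132 higher (1.25%) and 34 lower (0.322%). Leaving out any other rat gave 0 or 1 call. H07 was set apart by its likeness to week 14, so a fit without it widens the gap between the weeks by construction. Each p without H07, here and below, is a description and no further support for a change. Of the 31 genes called by DESeq2, 19 were among these 166, which is 61.3% of the first list and 11.4% of the second. Both fits share all rats but H07, so the overlap carries no independent weight.

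The 8 livers bounded the size of most changes. The median standard error of a log2 fold change (week 14 over week 8) was 0.104, and the median size of the change itself was 0.0917. For 9839 genes (93.8%) the 95% interval lay inside a 2-fold change in either direction, and for 7343 genes (70.0%) it lay inside a log2 change of 0.5. The median log2 fold change over all genes was 0.00073, a value that the scaling sets near 0. For comparison, the same test on 4 rats against 4 called 3814 of 10812 genes (35.3%) between DEN-treated and untreated liver at week 8. Counts of list members at an unadjusted p under 0.05 are to be read against the shares of all genes, 5.44% higher and 4.46% lower. No list as a whole was tested.

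**Figure D2:**
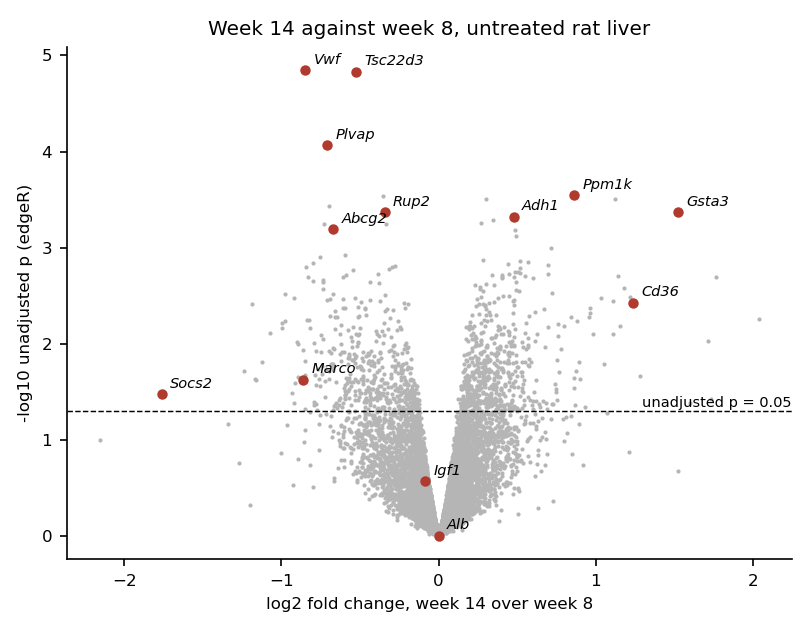
Log2 fold change of each of 10486 genes, week 14 over week 8, against the negative log10 of the unadjusted edgeR p, with the dashed line at 0.05. Vwf and Tsc22d3 stand highest, both lower at week 14, and none of the points passed at an adjusted p of 0.05.

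The genes named next, and every gene below that is not one of the 22 landmarks, were chosen after their values were seen. Vwf encodes von Willebrand factor, the clotting protein of vascular endothelium. It was 11.2, 11.02, 10.1 and 13.1 CPM in the 4 rats of week 8 and 5.28, 5.57, 7.08 and 7.39 CPM in those of week 14. All week 14 livers were below all week 8 livers, and the log2 fold change was -0.85 ± 0.12 (SE, n = 4 per week, edgeR adjusted p = 0.0771). The adjusted p was 8.50e-06 by DESeq2 and 0.00871 by edgeR without H07. At week 20 the 4 rats had 9.82, 9.38, 7.41 and 8.20 CPM, all between the 2 earlier groups.

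Tsc22d3, also named GILZ, is a target of glucocorticoid hormones. It had 23.8, 24.8, 25 and 27.4 CPM at week 8 and 16.6, 16.8, 17.5 and 19.7 CPM at week 14. The groups did not overlap (log2 fold change -0.52 ± 0.08, SE, edgeR adjusted p = 0.0771, DESeq2 adjusted p = 1.39e-05), and the edgeR adjusted p was 0.0127 without H07. The week 20 livers were split, with 26.2 and 27.3 CPM in 2 rats and 17.7 and 16.7 CPM in the other two. Over the list of 18 tested metallothionein and stress hormone genes, 1 was higher and 1 (Tsc22d3) lower at an unadjusted p under 0.05, and the median log2 fold change was 0.04. Per1, another glucocorticoid target and a clock gene, did not separate the weeks (log2 fold change -0.26, 95% interval -0.76 to 0.25).

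Plvap, a protein of endothelial diaphragms, was 12.4, 11.2, 8.28 and 9.89 CPM at week 8 and 6.03, 5.71, 6.84 and 7.03 CPM at week 14. Its log2 fold change was -0.71 ± 0.13 (SE), with an adjusted p of 0.30 by edgeR, 0.0011 by DESeq2 and 0.00871 by edgeR without H07. In the endothelial marker list 3 of 14 tested genes were lower at an unadjusted p under 0.05 (Vwf, Cd34 at -1.19 and Cdh5 at -0.44) and 0 were higher. The sinusoidal markers Stab2 and Lyve1 had log2 fold changes of 0.01 (95% interval -0.58 to 0.60) and -0.05 (95% interval -0.43 to 0.34). Pecam1, of all endothelium, had -0.24 (edgeR adjusted p = 0.585). The summed level of the 14 markers overlapped between the weeks, at 182 to 261 CPM and 175 to 251 CPM. In bulk liver, fewer cells of a type and less RNA per cell cannot be told apart.

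Ppm1k, the phosphatase that activates the breakdown of branched-chain amino acids, was 22.7, 21.8, 24.2 and 13.3 CPM at week 8 and 38.7, 35.9, 35.9 and 39.5 CPM at week 14. All week 14 livers were higher (log2 fold change 0.86 ± 0.15, SE). The adjusted p was 0.371 by edgeR, 6.80e-05 by DESeq2 and 0.0343 by edgeR without H07. At week 20 single rats ran from 24.5 to 50.3 CPM, which covered the week 14 values. Rup2, a urinary protein gene, was lower, from 7367 to 9053 CPM at week 8 to 6139 to 6965 CPM at week 14 (log2 fold change -0.34 ± 0.07, SE, edgeR adjusted p = 0.371, DESeq2 adjusted p = 0.0133, edgeR adjusted p without H07 = 0.0191).

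**Figure D3:**
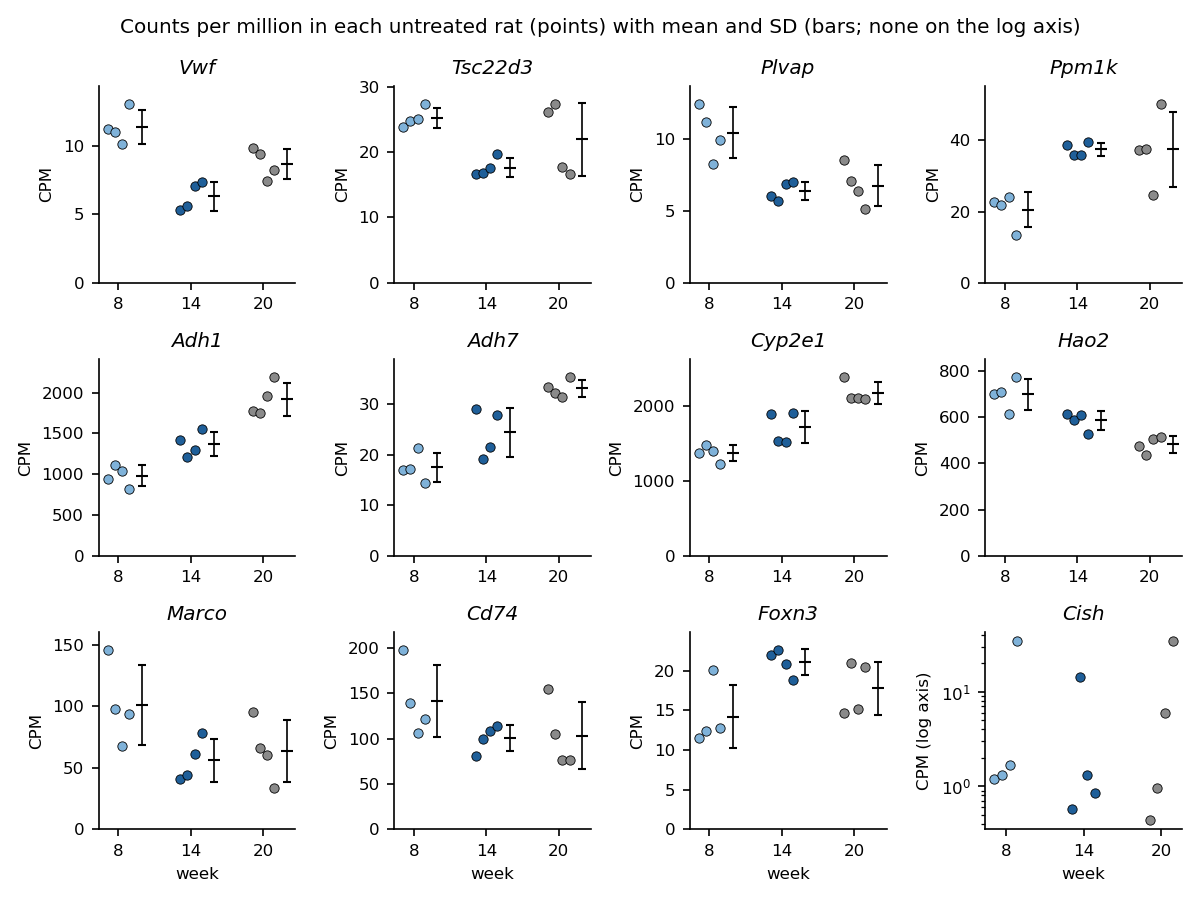
CPM of 12 genes in each untreated rat at weeks 8, 14 and 20, with points for rats and bars for mean and SD, on axes that start at 0 except for Cish, which has a log axis. Vwf, Tsc22d3, Plvap, Ppm1k and Adh1 show no overlap between weeks 8 and 14, while 1 rat of week 8 (H07) has a Foxn3 level of 20.1 CPM, within the week 14 range.

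Of the landmark genes of liver, 22 are given here. None passed the test, the smallest adjusted p among them was 0.479 (edgeR), and 1 was higher and 1 lower at an unadjusted p under 0.05. The 95% interval of 18 of them lay inside a 2-fold change. Albumin ranged from 170975 to 183057 CPM at week 8 and from 167520 to 189165 CPM at week 14, with a log2 fold change of 0.00 (95% interval -0.13 to 0.13). Afp, the fetal albumin-like protein, was at 24.7 to 28.5 CPM and 24.4 to 28.5 CPM (log2 fold change -0.03, 95% interval -0.19 to 0.13). Of 12 tested fetal and neonatal genes, only H19, an imprinted RNA, was past an unadjusted p of 0.05 (log2 fold change 1.11).

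**Figure D4:**
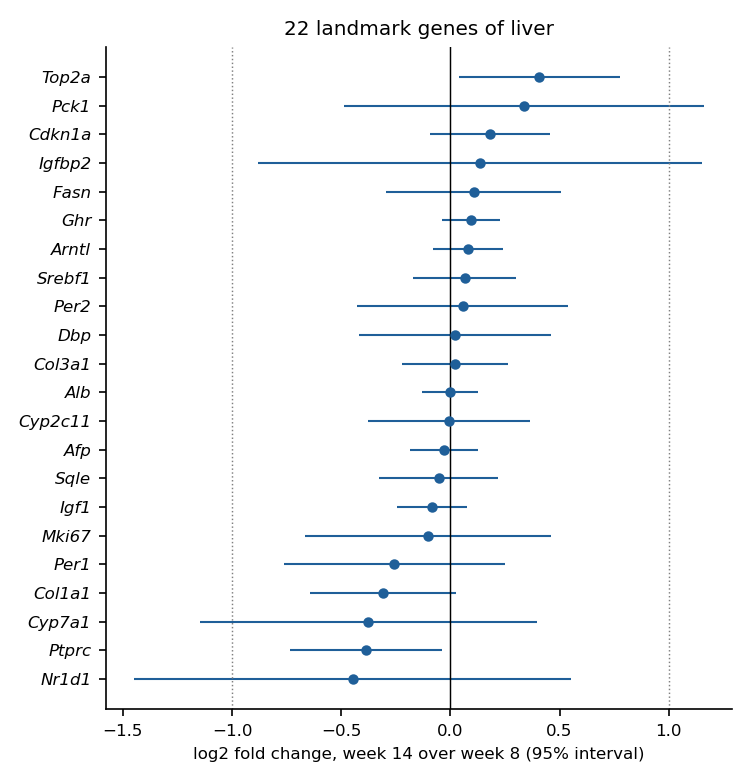
Log2 fold change, week 14 over week 8, of the 22 landmark genes with 95% intervals from edgeR, where dotted lines mark a 2-fold change. The interval of 18 genes lies inside those lines, and Alb (0.00) and Ghr (0.09) have short ones while those of Nr1d1 and Cyp7a1 reach past a 2-fold fall.

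Genes of the growth hormone axis were compared because the rats were young adults at both weeks. Igf1, the growth factor that liver secretes under growth hormone, was 574, 529, 662 and 584 CPM at week 8 and 553, 590, 559 and 524 CPM at week 14. The groups overlapped, and the 95% interval of the log2 fold change was -0.24 to 0.07. Ghr, the growth hormone receptor, ran from 478 to 545 CPM at week 8 and from 513 to 557 CPM at week 14 (log2 fold change 0.09, 95% interval -0.04 to 0.23). The binding protein gene Igfbp2 was at 0.652 to 2.13 CPM and 0.705 to 2.94 CPM, and with such low levels its interval was wide (-0.88 to 1.15).

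Cyp2c11, the main male-specific P450 of rat liver, had 3238, 3656, 3054 and 4109 CPM at week 8 and 4390, 3516, 3679 and 2488 CPM at week 14. The log2 fold change was -0.01 (95% interval -0.38 to 0.36). Of 12 male-biased genes tested, 0 were called by edgeR, 0 reached an unadjusted p of 0.05, and all 12 had an interval inside a 2-fold change. Neither DESeq2 nor edgeR without H07 called any of them. Of 14 female-biased genes, 1 was higher (Adh4, 0.49) and 1 lower (Hao2, -0.26) at an unadjusted p under 0.05.

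The feedback genes of growth hormone signalling varied widely between single rats. Cish, an inhibitor of the receptor's signal, was 1.19, 1.32, 1.66 and 34.0 CPM at week 8 and 0.570, 14.4, 1.33 and 0.847 CPM at week 14. Rat H08 at week 8 and rat H10 at week 14 stood apart, as did H16 at week 20 with 34.1 CPM. The 95% interval of the Cish log2 fold change ran from -5.03 to 2.63. Socs2, a second inhibitor, had 9.96, 5.90, 3.10 and 21.2 CPM at week 8 and 1.83, 4.83, 3.01 and 2.34 CPM at week 14, and it was also highest in H08 (log2 fold change -1.76 ± 0.66, SE, edgeR adjusted p = 0.480, and -1.09 without H08). Irs1, Irs2, Insr and Stat5b, which carry insulin and growth hormone signals, had log2 fold changes of 0.36, 0.53, 0.44 and 0.24 with an unadjusted p under 0.05, part of 5 higher and 1 lower among 20 tested genes of the axis. Without H07, edgeR called Insr (adjusted p = 0.0105) and Irs1 (adjusted p = 0.0290).

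Adh1 and Cyp2e1, a pair of enzymes that oxidise ethanol, did not pass the edgeR test at week 14 and passed it at week 20. Adh1, the main liver alcohol dehydrogenase, had 947, 1118, 1040 and 817 CPM at week 8 and 1425, 1217, 1294 and 1557 CPM at week 14. The groups did not overlap, and the log2 fold change was 0.48 ± 0.10 (SE, edgeR adjusted p = 0.371, DESeq2 adjusted p = 0.0186). At week 20 the 4 livers had 1770, 1753, 1964 and 2191 CPM, all above week 14. Cyp2e1, the P450 that oxidises ethanol, acetone and DEN itself, was 1376, 1481, 1399 and 1229 CPM at week 8, and 1895, 1539, 1525 and 1911 CPM at week 14 (log2 fold change 0.32 ± 0.09, SE, edgeR adjusted p = 0.412). It reached 2388, 2107, 2113 and 2093 CPM at week 20.

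Promoters of Cyp2e1, Adh4 and Adh7, which oxidise alcohols or retinol, are shown as genes that passed the test at week 20. They were not chosen by p alone, since Acsl4, Ugt2b1 and Ugt1a5 had a smaller p than Adh4 and are not shown. The 250 bases before the transcription start come from RefSeq on the build GRCr8, not the build of the counts, on the plus strand in each case. Capitals mark a match to any of 4 motifs searched on both strands: the TATA box TATAAA, a C/EBP-like site TTGCNNAA, a PAR bZIP-like site TTANGTAA and the E-box CACGTG. No entry for Adh1 was matched. The windows are chr2:229621842-229622091 for Adh4, chr2:229421875-229422124 for Adh7 and chr1:205269717-205269966 for Cyp2e1.
Adh4: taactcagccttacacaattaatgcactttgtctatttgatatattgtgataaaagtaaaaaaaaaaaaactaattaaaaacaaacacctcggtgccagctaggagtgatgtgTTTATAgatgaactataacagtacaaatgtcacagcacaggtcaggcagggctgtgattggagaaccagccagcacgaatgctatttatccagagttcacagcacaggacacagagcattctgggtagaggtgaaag
Adh7: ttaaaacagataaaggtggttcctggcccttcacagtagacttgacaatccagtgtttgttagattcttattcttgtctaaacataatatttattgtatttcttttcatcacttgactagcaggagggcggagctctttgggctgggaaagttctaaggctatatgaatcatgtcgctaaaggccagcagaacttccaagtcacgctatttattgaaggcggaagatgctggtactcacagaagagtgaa
Cyp2e1: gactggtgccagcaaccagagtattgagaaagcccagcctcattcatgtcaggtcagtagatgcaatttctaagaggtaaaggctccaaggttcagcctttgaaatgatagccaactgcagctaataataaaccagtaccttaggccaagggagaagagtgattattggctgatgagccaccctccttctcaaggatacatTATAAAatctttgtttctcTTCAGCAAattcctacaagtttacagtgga

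The Cyp2e1 window held a TATA box 49 to 44 bases before the start and a C/EBP-like site 30 to 23 bases before it. The Adh4 window held a TATA box letter match on the minus strand, 137 to 132 bases before the start, and the Adh7 window held no match. The TATA box occurred in 12.9% of 33469 promoter windows of this length, the C/EBP-like site in 9.22%, the PAR bZIP-like site in 2.04% and the E-box in 5.59%. Among the 36 genes that rose by week 20, 30 had a promoter entry, of which 5 held the TATA box, 3 the C/EBP-like site, 1 the PAR bZIP-like site and 3 the E-box. A gene was counted if any of its windows matched, while the shares above are of single windows. The counts and the shares are thus in unlike units and are not to be compared. A match is a description of letters and not a site.

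In the lists of drug metabolism more members were higher than lower at week 14. Of 41 tested P450 genes and their sensors, 6 were higher and 0 lower at an unadjusted p under 0.05, with a median log2 fold change of 0.04. The members with the smallest p were Cyp2e1 and the fatty acid hydroxylase Cyp4a3 (0.38). Of 34 conjugation enzymes, 6 were higher and 0 lower (median 0.04). No member of either list passed the edgeR test with all 8 rats, and Cyp4a3 passed it without H07 (adjusted p = 0.0417). Gsta3, a glutathione transferase of low level, had 1.26, 2.52, 1.34 and 1.18 CPM at week 8 and 6.48, 2.87, 3.82 and 4.91 CPM at week 14, without overlap (log2 fold change 1.52 ± 0.30, SE, edgeR adjusted p = 0.371, DESeq2 adjusted p = 0.00039). It has near-identical relatives, so its count is uncertain. Cyp4f6, a P450 outside that list, ran from 83.7 to 97.3 CPM at week 8 and from 69.6 to 81.3 CPM at week 14, without overlap (log2 fold change -0.35 ± 0.07, SE, edgeR adjusted p = 0.371, DESeq2 adjusted p = 0.0141). The efflux pump Abcb1b was 1.61, 1.49, 2.90 and 1.01 CPM at week 8 and 4.62, 2.97, 2.86 and 4.77 CPM at week 14, where H11 overlapped with H07. Its log2 fold change was 1.11 ± 0.30 (SE, adjusted p = 0.412 by edgeR, 0.0497 by DESeq2 and 0.0186 by edgeR without H07). Ugt1a1, which conjugates bilirubin, and its relative Ugt1a5 had log2 fold changes of 0.47 and 0.37, and both share their later exons, so reads there could not be told apart.

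Genes of fatty acid oxidation had the highest list median. Of 31 tested, 8 were higher and 1 lower at an unadjusted p under 0.05, 26 had a log2 fold change above 0, and the median was 0.17. Without H07, edgeR called 3 of the 31 higher and 1 lower. Ehhadh, the peroxisomal bifunctional enzyme, ran from 390 to 551 CPM and from 607 to 941 CPM (log2 fold change 0.60 ± 0.14, SE, edgeR adjusted p = 0.412, DESeq2 adjusted p = 0.0209). Ech1, an isomerase of fatty acid oxidation outside that list, ran from 129 to 169 CPM and from 179 to 247 CPM (log2 fold change 0.48 ± 0.12, SE, edgeR adjusted p = 0.412, DESeq2 adjusted p = 0.0497). Cd36, which takes up fatty acids, is also outside that list. It was 6.36, 6.47, 11.8 and 4.52 CPM at week 8 and 19.4, 14.4, 13.2 and 22.01 CPM at week 14, with the highest week 8 value in H07. Its log2 fold change was 1.23 ± 0.30 (SE, edgeR adjusted p = 0.412), and 1.57 without H07 (edgeR adjusted p = 0.0186).

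Lipid synthesis did not separate the weeks. Fasn, the fatty acid synthase, ran from 853 to 1023 CPM at week 8 and from 706 to 1259 CPM at week 14 (log2 fold change 0.11, 95% interval -0.30 to 0.51). Its regulator Srebf1 had an interval of -0.17 to 0.30. Of 22 fatty acid synthesis genes 0 were past an unadjusted p of 0.05 in either direction. Of 25 cholesterol synthesis genes, 3 were lower at an unadjusted p under 0.05 and 0 were higher. Sqle, the squalene epoxidase of the path, had a log2 fold change of -0.05 (95% interval -0.32 to 0.22). All 25 intervals lay inside a 2-fold change.

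Genes that move with feeding varied within each week. Pck1, of gluconeogenesis, had 1015 to 2158 CPM and 1051 to 2364 CPM (log2 fold change 0.34, 95% interval -0.49 to 1.16). Cyp7a1, the rate-limiting enzyme of bile acid synthesis, ran from 38.1 to 98.9 CPM and from 37.3 to 66.5 CPM, and of 22 bile acid genes 0 were past an unadjusted p of 0.05. Feeding state at collection is not given in the sources used here.

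Clock genes read the hour of collection, since many of them swing several-fold over a day. Arntl (Bmal1), an activator of the clock, was 36.0 to 42.7 CPM at week 8 and 38.5 to 46.3 CPM at week 14 (log2 fold change 0.08, 95% interval -0.08 to 0.24). The repressor Per2 ran from 12.4 to 18.99 CPM and from 12.2 to 22.3 CPM, and the output gene Dbp from 1.88 to 2.45 CPM and from 1.47 to 2.98 CPM. Nr1d1 (Rev-erb alpha), another repressor, varied most, with 10.7, 8.28, 20.8 and 24.1 CPM at week 8 and 17.98, 8.14, 11.7 and 9.37 CPM at week 14. Of 16 clock genes, 2 (Cry1 and Npas2) were higher and 0 lower at an unadjusted p under 0.05.

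Cell division was low at both weeks. Mki67, a marker of dividing cells, was 3.81, 3.45, 4.66 and 7.39 CPM at week 8 and 3.96, 3.27, 5.54 and 5.30 CPM at week 14 (log2 fold change -0.10, 95% interval -0.66 to 0.46). Top2a, a topoisomerase of dividing cells, ran from 2.27 to 4.05 CPM and from 3.78 to 5.12 CPM (log2 fold change 0.41 ± 0.17, SE, edgeR adjusted p = 0.480). Of 27 genes of S phase and 36 of G2 and M phase, 1 in each list was higher at an unadjusted p under 0.05 and 0 were lower. Cdkn1a, the inhibitor p21, was 22.7 to 32.9 CPM and 26.5 to 34.7 CPM (log2 fold change 0.18, 95% interval -0.09 to 0.46).

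Markers of Kupffer cells were lower at week 14 in most genes, with none past the edgeR test. Of 15 tested, 7 were lower and 1 higher at an unadjusted p under 0.05, 14 had a log2 fold change below 0, and the median was -0.41. The scavenger receptor Marco was 146, 97.6, 67.3 and 93.6 CPM at week 8 and 40.9, 43.7, 60.9 and 78.1 CPM at week 14 (log2 fold change -0.86 ± 0.30, SE, edgeR adjusted p = 0.462). Rat H05 was highest at week 8, and H12 of week 14 overlapped with H07 of week 8. The macrophage genes Csf1r, Cd5l and Adgre1 had log2 fold changes of -0.52, -0.67 and -0.69, and that of Csf1r was -0.33 without H05. Cd163, the haemoglobin receptor of macrophages, had 48.5, 37.0, 31.6 and 36.5 CPM against 22.4, 20.3, 28.4 and 30.1 CPM, with no overlap (log2 fold change -0.61 ± 0.16, SE, edgeR adjusted p = 0.412, DESeq2 adjusted p = 0.0396). The whole list summed to 680 to 1215 CPM at week 8, 558 to 765 CPM at week 14 and 502 to 831 CPM at week 20, so the groups overlapped.

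Cd14, a receptor for bacterial lipopolysaccharide that hepatocytes also make, was the exception in that list, with 27.1, 39.1, 27.3 and 20.3 CPM at week 8 and 42.9, 34.1, 39.2 and 50.2 CPM at week 14 (log2 fold change 0.54 ± 0.20, SE, edgeR adjusted p = 0.462). The neutrophil and monocyte list summed to 210 to 229 CPM at week 8 and 207 to 227 CPM at week 14, most of it Ceacam1 (a mean of 200 and 203 CPM), which hepatocytes also make. Of its 8 tested genes, 3 were lower (Itgam at -0.66, Plac8 at -0.62 and Fcgr3a at -0.53) and 0 higher at an unadjusted p under 0.05, and Itgam passed by edgeR without H07. All 14 tested T and NK cell markers had a log2 fold change below 0 (median -0.35, 2 lower at an unadjusted p under 0.05), and their sum was 31.2 to 47.7 CPM at week 8 and 24.9 to 31.4 CPM at week 14. The common leukocyte gene Ptprc (CD45) was 14.9, 10.1, 9.16 and 13.03 CPM at week 8 and 7.93, 8.07, 9.22 and 10.98 CPM at week 14 (log2 fold change -0.39 ± 0.16, SE, edgeR adjusted p = 0.479). The red cell list went from 190 to 301 CPM at week 8 to 287 to 330 CPM at week 14, and its part in these results was not tested.

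The genes of antigen presentation had a median log2 fold change of -0.31 over 16 tested, with 5 lower and 0 higher at an unadjusted p under 0.05. Cd74, the invariant chain of MHC class II, was 198, 140, 107 and 122 CPM at week 8 and 80.6, 99.4, 108 and 114 CPM at week 14 (log2 fold change -0.50 ± 0.19, SE, edgeR adjusted p = 0.480). H07 at 107 CPM lay within the week 14 values, and H05 stood above the rest. Without H05 the log2 fold change of Cd74 was -0.30 and that of RT1-Da -0.37. The class II chains RT1-Da and RT1-Bb (-0.58 and -0.45) and the activator Ciita (-0.35) were the other members named here. These genes are made by the macrophages and white cells whose markers were also lower, and the part of those cells was not tested.

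Immediate early genes, which respond within minutes to handling and injury, had a median log2 fold change of -0.41 over 19 tested, with 5 lower and 0 higher at an unadjusted p under 0.05. Cyr61, a matrix protein of this class, was 5.69, 7.96, 8.12 and 11.2 CPM at week 8 and 4.17, 3.95, 6.11 and 4.80 CPM at week 14 (log2 fold change -0.80 ± 0.20, SE, edgeR adjusted p = 0.412, DESeq2 adjusted p = 0.0426). Of 31 chaperone and ER stress genes, 6 were lower and 0 higher (median -0.08), with Dnajb9 at -0.38, which passed by edgeR without H07 (adjusted p = 0.0404). Of 26 acute-phase genes, 5 were higher and 0 lower (median 0.07). Hamp, the iron hormone hepcidin, ran from 147 to 250 CPM at week 8 and from 263 to 378 CPM at week 14, without overlap (log2 fold change 0.62 ± 0.18, SE, edgeR adjusted p = 0.428, DESeq2 adjusted p = 0.0497).

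Stellate cell and fibroblast markers were higher in sum at week 14 (751 to 843 CPM) than at week 8 (643 to 725 CPM), with no overlap. Such a sum is weighted by its abundant members, among them Ecm1, with a mean of 117 CPM at week 8 and 149 CPM at week 14. A change in the number of these cells was not tested. Of 14 tested, 4 were higher and 0 lower at an unadjusted p under 0.05, while 9 had a log2 fold change above 0 and 5 below it (median 0.12). The lowest was the contractile gene Acta2 at -0.44. Ecm1, a matrix protein gene on this marker list, was 118, 139, 112 and 100 CPM at week 8 and 150, 159, 145 and 142 CPM at week 14 (log2 fold change 0.34 ± 0.09, SE, edgeR adjusted p = 0.412). Colec10, a collectin, was 27.5 to 30.7 CPM and 32.3 to 35.8 CPM (log2 fold change 0.23 ± 0.06, SE, edgeR adjusted p = 0.412). Col1a1 and Col3a1 encode the main fibrillar collagens. Col1a1 was 9.71, 7.64, 7.27 and 8.14 CPM at week 8 and 7.39, 7.73, 6.93 and 4.60 CPM at week 14 (log2 fold change -0.31, 95% interval -0.64 to 0.03). Col3a1 had a log2 fold change of 0.02 (95% interval -0.22 to 0.26).

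**Figure D5:**
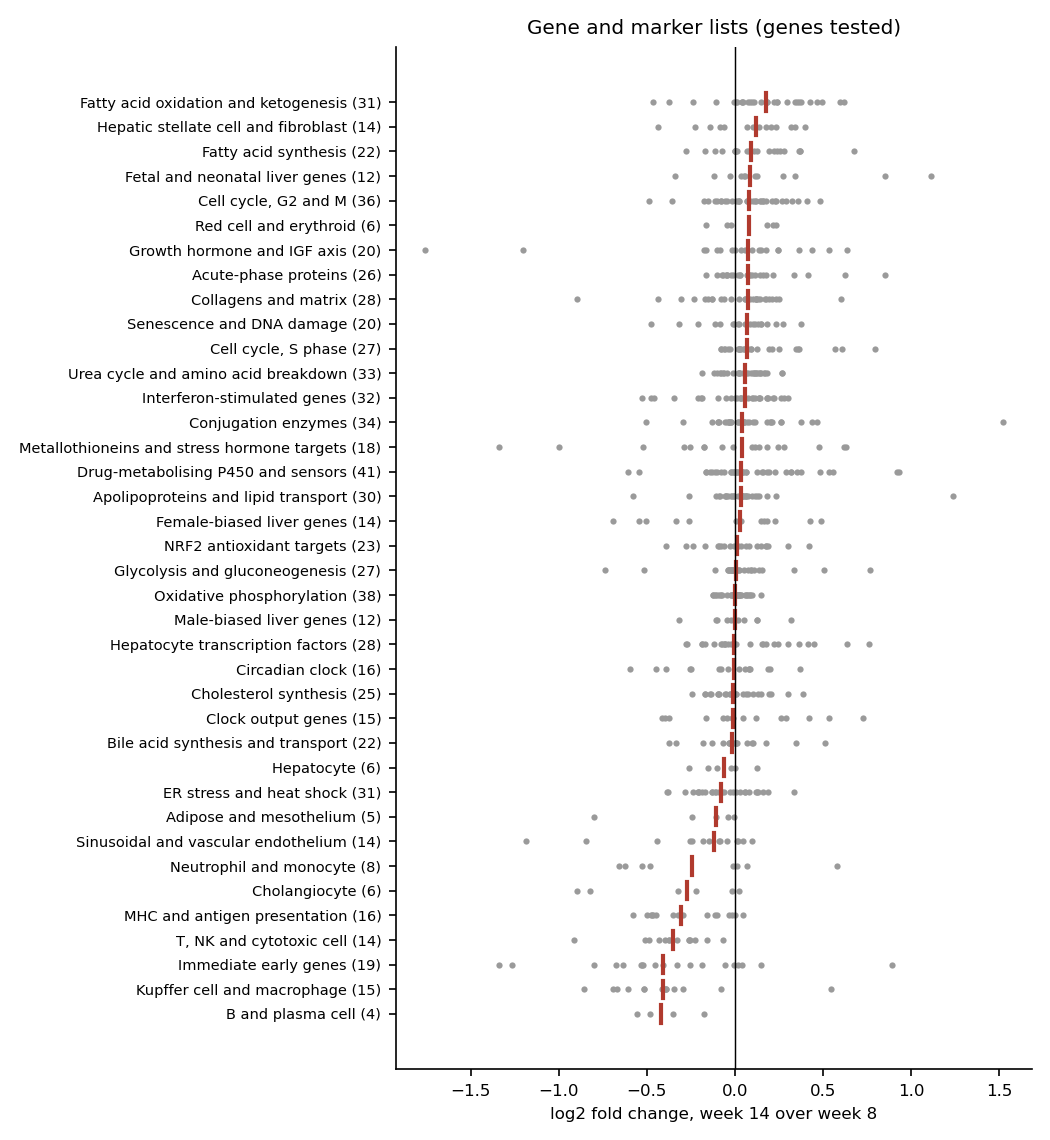
Log2 fold change, week 14 over week 8, of the tested members (grey points) of each gene or marker list with at least 4 tested, with the red line at the list median and the black line at the median of all genes. The medians run from -0.42 for B and plasma cells to 0.17 for fatty acid oxidation, and oxidative phosphorylation genes lie within -0.13 and 0.15.

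All 38 oxidative phosphorylation genes had an interval inside a log2 change of 0.5, and their changes ran from -0.13 to 0.15. Of 33 genes of the urea cycle and amino acid breakdown, 32 had an interval inside a 2-fold change. The hepatocyte transcription factors were less tightly bounded, with 22 of 28 inside a 2-fold change. Of the 28, 4 were higher and 0 lower at an unadjusted p under 0.05. Among them were Prox1 (0.42) and the estrogen receptor Esr1 (0.45). Without H07, edgeR called 3 of the 28 higher, Prox1 among them.

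H07 stood out by its likeness to week 14, so leaving it out widens the gap between the weeks by construction. The genes given next were also picked for a high value in H07, and their p without it is a description. A1cf, a partner of apolipoprotein B RNA editing, was 16.3, 19.8, 32.7 and 20.8 CPM at week 8 and 40.9, 36.8, 34.6 and 33.9 CPM at week 14. The value of 32.7 CPM belonged to H07, and the log2 fold change was 0.70 ± 0.19 (SE, edgeR adjusted p = 0.425) with it and 0.93 (edgeR adjusted p = 0.00587) without it. DESeq2 called it with all 8 rats (adjusted p = 0.0405). Foxn3, a forkhead repressor, had 11.5, 12.4, 20.1 and 12.8 CPM at week 8 and 18.9 to 22.6 CPM at week 14 (0.56 with H07, and 0.77 without it with an edgeR adjusted p of 0.00593). Nr2c2, an orphan nuclear receptor, was 2.38, 2.67, 4.99 and 1.99 CPM against 4.96 to 6.12 CPM (0.84 with H07, and 1.20 without it with an edgeR adjusted p of 0.00674).

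Insr, the insulin receptor, and Foxo1, a target of its signal, were of the same kind. Insr was 21.3, 20.9, 31.98 and 18.9 CPM at week 8 and 27.3 to 35.3 CPM at week 14, and its edgeR adjusted p was 0.449 with H07 and 0.0105 without it. Foxo1 was 8.21, 7.08, 10.3 and 6.21 CPM at week 8 and 11.1 to 11.7 CPM at week 14, with an edgeR adjusted p of 0.412 and 0.0125. Prox1 followed them, with 40.3 CPM in H07, 25.3 to 31.3 CPM in the other week 8 rats and 39.3 to 46.7 CPM at week 14 (edgeR adjusted p = 0.425 and 0.0127).

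The longer span from week 8 to week 20 gave calls. Of 10418 genes, 36 rose (0.346%) and 13 fell (0.125%) at an adjusted p of at most 0.05 by edgeR, and 1 gene had at least a 2-fold change at an adjusted p of at most 0.01. DESeq2 called 296. From week 14 to week 20, 0 of 10432 genes (0%) passed by edgeR, 670 had an unadjusted p under 0.05 and DESeq2 called 39. These comparisons share rats with that of week 14 against week 8, and they carry no independent weight.

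The genes that rose by week 20 held 5 of 34 tested conjugation enzymes and 3 of 41 tested P450 genes and sensors, beside 36 of 10418 genes (0.346%) in all. Of the 5, Ugt1a1 and Ugt1a5 share their later exons and are not fully separate members. The log2 fold change, week 20 over week 8, was 0.97 ± 0.10 for Adh1 (SE, edgeR adjusted p = 0.00409), 0.92 ± 0.10 for Adh7, 0.67 ± 0.08 for Cyp2e1 and 1.01 ± 0.13 for Adh4. Adh7, a retinol dehydrogenase, had 16.98, 17.2, 21.4 and 14.4 CPM at week 8, 29.2, 19.2, 21.6 and 27.9 CPM at week 14 and 33.5, 32.3, 31.5 and 35.4 CPM at week 20. The week 14 rat H10 overlapped with H07, and the week 14 log2 fold change did not pass. Adh4, which oxidises retinol and long-chain alcohols, was 8.31 to 11.9 CPM at week 8, 11.7 to 17.1 CPM at week 14 and 17.5 to 25.2 CPM at week 20.

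Ugt2b1, a steroid glucuronosyltransferase, was 94.1, 129, 81.7 and 91.3 CPM at week 8 and 70.5, 105, 134 and 149 CPM at week 14, which overlap, and 190 to 203 CPM at week 20 (log2 fold change 1.00 ± 0.12 for week 20 over week 8, SE, edgeR adjusted p = 0.00726). Fmo5, a flavin monooxygenase, had 4.12, 13.1, 9.75 and 5.61 CPM at week 8 and 51.2, 8.20, 16.2 and 33.0 CPM at week 14. Single week 14 rats thus ranged from the week 8 level to near the 51.3 to 87.7 CPM of week 20, where the log2 fold change was 3.13 ± 0.37 (SE, edgeR adjusted p = 0.0313). Sult2a6, a hydroxysteroid sulfotransferase, rose by 1.23 ± 0.20, Cyp4a8 by 1.03 ± 0.16 and Gsta1 by 0.49 ± 0.07. Without H07, 151 genes were called for week 20 over week 8, but Sult2a6 and Cyp3a18 were not among them (edgeR adjusted p = 0.0599 and 0.0527). Adh1, Adh4, Adh7, Cyp2e1, Acsl4, Ugt2b1, Ugt1a5 and Csrp1 passed whichever 1 of the 8 rats was left out. Gsta1 and Fmo5 passed in 4 of those 8 fits, Cyp4a8 in 2, and Sult2a6 and Cyp3a18 in 1 each. In a fit over 24 libraries Adh4, Acsl4, Ugt1a5 and Ugt2b1 did not pass (adjusted p = 0.158, 0.165, 0.107 and 0.0594). Others that rose were Cxcl14 (1.25), Timp3 (1.11), Lonrf3 (1.04), Tuba3a (2.07), Cd14 (1.16) and Ugt1a1 (0.73). The first of these were at low levels. Means at weeks 8 and 20 were 3.03 and 7.18 CPM for Cxcl14, 3.08 and 6.62 CPM for Timp3, 1.87 and 3.84 CPM for Lonrf3 and 0.43 and 1.80 CPM for Tuba3a. With 1 rat left out, Tuba3a passed in 7 of 8 fits, Ugt1a1 in 5, Cxcl14, Timp3 and Cd14 in 3 and Lonrf3 in 2.

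The genes that fell by week 20 numbered 13. Hao2, a peroxisomal hydroxyacid oxidase of female-biased liver, was 699, 706, 612 and 772 CPM at week 8, 614, 588, 610 and 528 CPM at week 14 and 475, 433, 504 and 514 CPM at week 20 (log2 fold change -0.53 ± 0.08, SE, edgeR adjusted p = 0.0244). Csrp1, a cytoskeletal LIM protein, went from 180 to 225 CPM at week 8 to 124 to 171 CPM at week 14 and 115 to 145 CPM at week 20 (log2 fold change -0.65 ± 0.09, SE, edgeR adjusted p = 0.0143). Axl, a receptor tyrosine kinase in the clearance of dying cells, had 15.3, 13.3, 11.2 and 11.6 CPM at week 8, 8.11 to 10.1 CPM at week 14 and 6.53 to 8.50 CPM at week 20. Abcg2, an efflux pump, was 6.36 to 8.71 CPM, 3.69 to 5.94 CPM and 3.14 to 5.50 CPM. For week 14 over week 8 both passed by DESeq2 (adjusted p = 0.0365 for Axl and 0.0335 for Abcg2) and by edgeR without H07 (adjusted p = 0.0290 and 0.0310). Itga4, Cd37 and Csf2ra, which white cells express, were low throughout and fell by 1.21, 0.99 and 0.77 on the log2 scale. Tymp and Ednra fell by 0.44 and 0.93. These calls were less firm, since Hao2 passed in 3 of 8 fits that left out a rat, Axl, Abcg2 and Csf2ra in 2, and Itga4 and Cd37 in 1, while Tymp passed in 5 and Ednra in 0.

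The change from week 8 to week 14 was compared with that of non-tumoral liver in DEN-treated rats, which had 4 rats per week. The rats also differed in their labels: all untreated rats carry H numbers, while 2 of the 4 DEN-treated rats of week 8 and 1 of the 4 of week 14 carry F numbers. What the letters stand for is not given in the sources used here. In DEN-treated liver 3334 of 11182 genes (29.8%) passed between week 14 and week 8. The difference between both changes, an interaction term in 16 libraries, passed for 1005 of 11219 genes (8.96%), 467 with a higher and 538 with a lower change under DEN. With the H rats alone it passed for 1086 genes, 568 higher and 518 lower, and leaving out 1 F rat gave 595 and 675 (week 8) or 1760 (week 14), within a range of 533 to 1870 over all 16 rats. Gimd1 had the smallest p, with a log2 fold change of -0.27 in untreated liver and -3.38 in DEN-treated liver, a difference of -3.08 ± 0.30 (SE, edgeR adjusted p = 0.000265). Apoc2, an activator of lipoprotein lipase, had 0.10 and -1.11, a difference of -1.17 ± 0.15 (SE).

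Genes named for untreated liver gave different answers in that test. Cyp2c11 had a log2 change of -0.01 in untreated liver and differed by -1.45 ± 0.37 (SE, edgeR adjusted p = 0.0266). The call held in 10 of 16 fits that left out a rat, and was lost without H07 (adjusted p = 0.0570), H09, H11 or any of 3 DEN-treated rats, and with the H rats alone (adjusted p = 0.114). Cyp2e1 had 0.32 and -0.46, a difference of -0.75 ± 0.20 (SE, edgeR adjusted p = 0.0266), a call that was lost without H08, H09, H12 or H21. Hao2 had -0.26 and -1.41, a difference of -1.11 ± 0.17 (SE). Adh1 had 0.48 and 0.62, and the difference of 0.18 had a 95% interval of -0.30 to 0.66. That difference ran from 0.03 to 0.34 when 1 rat was left out. Vwf had -0.85 and -0.46, with a difference of 0.42 (edgeR adjusted p = 0.114) that did not pass.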

How the data were processed

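Liver RNA of the 8 untreated rats was compared by week of collection, with week 20 of untreated liver and weeks 8 and 14 of non-tumoral DEN liver as further groups, and the 4 libraries of week 20 of non-tumoral DEN liver used only in an alternative fit (24 libraries in all). The deposited values are whole-number counts of read pairs for each gene, 1 table a rat, which had not been normalized. Per the labels and the study's methods, polyadenylated RNA was sequenced strand-specifically in pairs of 75 bases, aligned with STAR 2.7.1a to the rat genome rn6, and counted with HTSeq on exons, keeping only pairs that lay within 1 gene and 1 place. Genes with near-identical copies are thus undercounted. The files held 17337 genes and 5 summary lines, which were removed. Tumor nodule files were not used.

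Genes were filtered with filterByExpr, scaled by TMM and compared with the 2-sided quasi-likelihood test of edgeR 4.0.16 (robust, R 4.3.3), using the 2 groups compared, or 4 groups for the interaction, with Benjamini-Hochberg adjustment over all genes tested. Genes with an adjusted p up to 0.05 are those said to rise or fall. Standard errors (SE) and 95% intervals come from that fit. CPM, counts divided by the scaled library total and given for each 1000000 pairs, are TMM-scaled over the 12 untreated libraries, and principal components used log2 CPM with a prior count of 2. Alternatives were DESeq2 1.42.0, limma-voom (limma 3.58.1), RLE and upper-quartile scaling, no filter, fits with 12 or 24 libraries, leaving out each rat, and H-numbered rats only for the interaction. Scripts were tested on simulated data. Replicates are rats, as labelled, and libraries had no molecular identifiers, so spread was taken between rats and not from counts.

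Named genes were to be the 12 largest rises and falls at an adjusted p of at most 0.05 without overlap, up to 4 called members of a list, and 24 landmark genes, of which 2 are not reported here. As no gene passed at week 14, other genes were chosen after their values were seen. The comparison and the gene lists, written from general knowledge, were chosen with earlier results of these data known.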

Additional observations from a re-analysis of the deposited data

Results flagged for a closer look

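Among 203 sets of 4 rats (a named gene at 1 week), 7 had a rat far from the other 3 by Dixon's criterion, where chance alone gives about 1 in 20. Cish was 34.0 CPM in H08 at week 8 against 1.19 to 1.66 CPM in the others, and 14.4 CPM in H10 at week 14 against 0.570 to 1.33 CPM. Foxn3 was 20.1 CPM in H07 against 11.5 to 12.8 CPM. Gsta3 was 2.52 CPM in H06 against 1.18 to 1.34 CPM. At week 14, Timp3 was 7.75 CPM in H09 against 3.55 to 3.88 CPM, and Cyp3a18 was 416 CPM in H10 against 497 to 499 CPM. At week 20, Cyp2e1 was 2388 CPM in H13 against 2093 to 2113 CPM.

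A set of 69 genes named for week 14 over week 8 or for the interaction was looked up in the interaction test of edgeR. For 14 of the 69 the change from week 8 to week 14 differed between DEN-treated and untreated liver at an adjusted p of at most 0.05, beside 1005 of 11219 genes (8.96%) in all. Genes named only for week 20 over week 8, or only as list members, were not in the set. Csrp1, 1 of those left out, also passed (-0.65, edgeR adjusted p = 0.0285). The log2 change under DEN was lower for Gimd1 (-3.08), Ecm1 (-1.05), Apoc2 (-1.17), Ggct (-0.91), Hao2 (-1.11), Afp (-0.61), Hamp (-1.15), Igf1 (-0.55), Cdkn1a (-0.86), Rup2 (-0.84), Colec10 (-0.53), Cyp2e1 (-0.75) and Cyp2c11 (-1.45), and higher for Rab7b (3.07). Gimd1, Ecm1, Apoc2, Ggct and Rab7b were named because they had the smallest p in that test, so the share of 14 of 69 says nothing about the named genes.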

How the results depend on the processing

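The count of genes called at week 14 over week 8 was 0 with RLE or upper-quartile scaling, limma-voom and a fit of 12 untreated libraries, 31 with DESeq2 (1 of them at 2-fold and an adjusted p of 0.01), 2 without the filter on low genes and 1 in a fit of 24 libraries. Leaving out each rat gave 0 to 166 calls, and 0 to 2 at 2-fold. The 166 came without H07 and 1 (Ppm1k) without H08. For week 20 over week 14 the count was 39 with DESeq2, 2 without the filter and 0 to 2 when a rat was left out (1 each without H11 and H15, 2 without H16). For week 20 over week 8 it was 296 with DESeq2, 100 with 12 libraries, and 12 to 151 when a rat was left out: 13 without H05, 22 without H06, 151 without H07, 13 without H08, 27 without H14, 31 without H15 and 12 without H16. The interaction count was 1529 with DESeq2 and ran from 533 to 1870 when a rat was left out. It moved by over 1.5 times without H07 (618), H10 (602), H11 (622), F09 (595), H21 (533), H17 (1870) and F06 (1760). With H-numbered rats only, an alternative chosen after seeing the data, it was 1086. Causes were not tested. The sign changed for some log2 fold changes that did not pass. Alb was -0.00344 with DESeq2, -0.0047 with RLE scaling, -0.00243 with 12 libraries, -0.000797 with 24, -0.00331 with upper-quartile scaling and -0.000271 with limma-voom, which also gave -0.0244 for Dbp and -0.00169 for Stab2. Leaving out each rat gave -0.0273 to 0.0241 for Alb, -0.0749 to 0.00672 for Afp, -0.34 to 0.39 for Igfbp2, -0.14 to 0.13 for Cyp2c11, -0.23 to 0.18 for Mki67, -0.12 to 0.18 for Per2, -0.14 to 0.18 for Dbp, -0.0193 to 0.13 for Srebf1, -0.00867 to 0.25 for Fasn, -0.14 to 0.0624 for Sqle, -0.0753 to 0.0994 for Col3a1, -3.40 to 1.59 for Cish, -0.19 to 0.19 for Stab2, -0.17 to 0.098 for Lyve1 and -0.32 to 0.41 for Tsc22d3 in the interaction. Leaving out 1 rat moved the size by over 1.5 times, with no change of sign, for Igf1, Cyp7a1, Top2a, Arntl, Per1, Nr1d1, Pck1, Cdkn1a, Col1a1, Csf1r, Cd74, RT1-Da, Socs2 and Pecam1, and for Adh1 in the interaction, none of which passed. A set of 64 genes named for week 14 over week 8 was followed through every alternative. Of these, 0 were called with edgeR, so none could lose a call, while DESeq2 called 17 of them and edgeR without H07 called 15. Genes named only as list members, such as Irs1, Cyp4a3, Itgam and Dnajb9, which edgeR also called without H07, were not in the set. Of 27 named for week 20 over week 8, DESeq2 kept all 27 calls, RLE scaling lost 3, no filter on low genes 1, a fit of 12 untreated libraries 6 (Ugt2b1, Ugt1a1, Sult2a6, Cyp4a8, Timp3 and Itga4) and a fit of 24 libraries 12 (Adh4, Acsl4, Ugt2b1, Ugt1a5, Ugt1a1, Cyp4a8, Cyp3a18, Tymp, Hao2, Itga4, Cd37 and Csf2ra). No paired analysis was possible because the rats of the 2 weeks are different animals that share no number. Depth was 28003905 to 35326660 counted pairs at weeks 8 and 14, and genes at a few CPM, such as Igfbp2, had intervals that reached past 2-fold.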
